A study of Saccharomyces cerevisiae with 2 samples.

Results

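The translation factors described here are 38 yeast proteins that bring ribosomes onto mRNA, move them along it and release the finished chain. They were chosen by gene symbol, and 37 of the 9335 probe sets on the array were annotated with one of these symbols. In initiation, a cap-binding complex and the scanning factors place a small ribosomal subunit carrying initiator tRNA at a start codon. Elongation factors then deliver aminoacyl-tRNA and shift the ribosome codon by codon, and release factors act at the stop codon. Because these factors serve every mRNA, cells in rapid growth on glucose carry many of their transcripts at high levels.

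The measurements were made on 2 samples of 1 group, replicates 1 and 2 of a *Saccharomyces cerevisiae* strain in which *SDH3*, a membrane anchor subunit gene of succinate dehydrogenase, was deleted from the strain CENPK 113–5D. Cells were grown aerobically in batch in minimal glucose medium with added uracil and taken when 20 g/liter of glucose remained. The arrays were of the Yeast Genome S98 type, where several short probes for a transcript make up a probe set and are reduced to 1 intensity in linear units. The study took the reference strain from 3 arrays of an earlier investigation, so a difference between strains cannot be told apart from one between studies or array batches. Nothing in the labels says whether the duplicates came from separate cultures, so their spread may be technical, and in bulk RNA fewer cells with a transcript and less of it per cell cannot be told apart.

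*SDH3* itself had intensities of 22.0 and 29.3 in the mutant replicates, against 528 to 558 on the reference arrays. A value is called not above background where it lay at or below the brightest of 19 probe sets for bacterial and mouse genes absent from yeast, which was 54.8 on array 1 and 92.1 on array 2. Those 19 probe sets were brighter on array 2 by a median of 0.67 on the log2 scale, the 9 probe sets for spiked control RNAs by 0.49 and the 10 rRNA control probe sets by 0.65. The ratio of 3′ to 5′ signal of *ACT1*, actin, was 1.02 on array 1 and 1.13 on array 2. For *SPT15* it was 1.03 on array 1 and 0.93 on array 2. Array 2 was thus brighter for the control probe sets, actin with a median of 0.46 over 3 probe sets among them. The part of this in the differences between arrays given below was not tested.

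Among the members, 28 probe sets were above background on both arrays, 8 on array 1 alone and 1 on neither. *TIF1* and *TIF2*, *TEF1* and *TEF2*, and *EFT1* and *EFT2* are gene pairs that encode the same protein, and each pair had 1 shared probe set, so their transcripts could not be told apart. *TEF4* and *EFB1* had 2 probe sets each. Intensities of different probe sets depend on the affinity of their probes, so transcript levels are compared below only within a probe set.

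**Figure D1:**
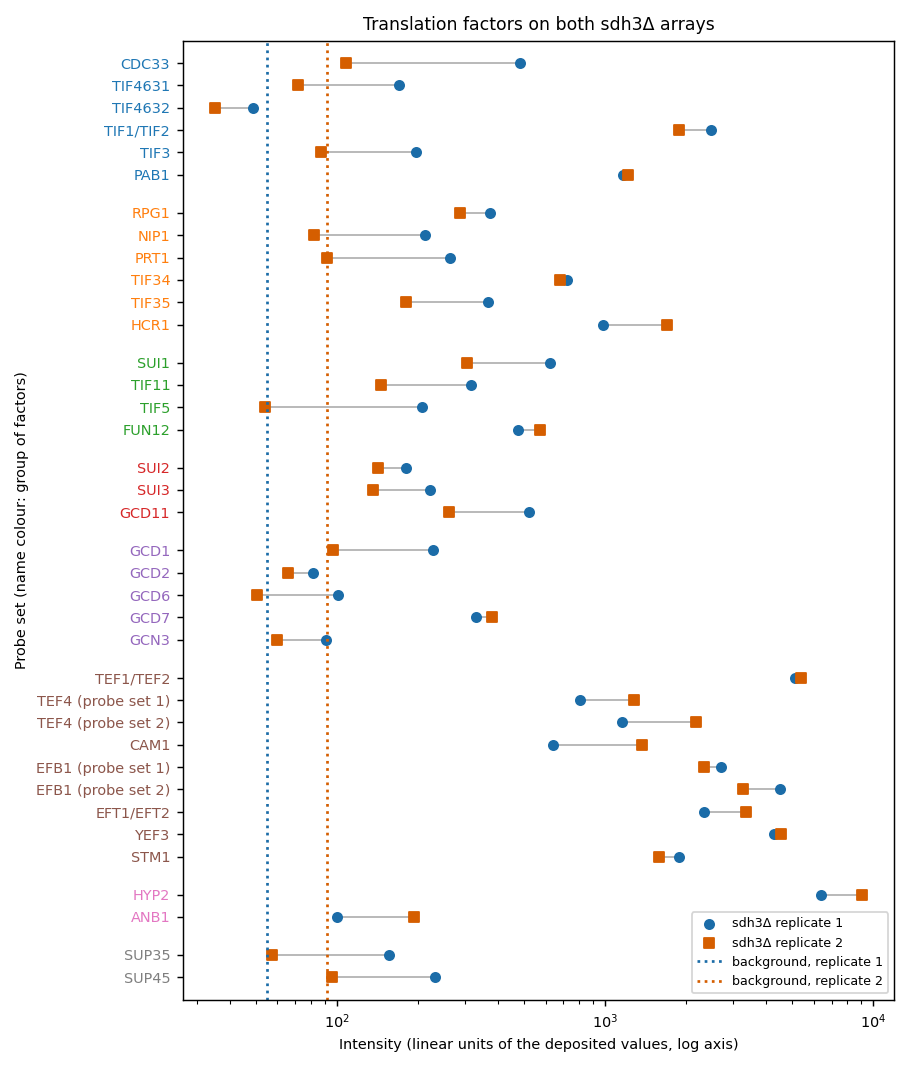
Intensity of each translation factor probe set (log axis) on both *sdh3*Δ arrays, circles for replicate 1 and squares for replicate 2, with each array's background as a dotted line. The elongation factor probe sets lie above background on both arrays, and *TIF4632* lies below it on both.

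Cap-binding genes came first in the order of initiation, and most of them were dimmer on array 2. *CDC33*, which encodes the cap-binding protein eIF4E, had intensities of 480 and 108, which was the widest gap between replicates among the 37 probe sets. *TIF4631*, a gene of the scaffold eIF4G, had 170 and 71.3, the second value not above background. *TIF4632*, the other eIF4G gene, had 48.5 and 35.2 and was not above background on either array. The shared probe set of *TIF1* and *TIF2*, for the RNA helicase eIF4A, gave 2483 and 1881, much closer together. *TIF3*, for the helicase cofactor eIF4B, had 198 and 87.1, while *PAB1*, the poly(A)-binding protein, had 1164 and 1221. The probe sets of *CDC33*, *TIF4631*, *TIF3* and the pair *TIF1* and *TIF2* were therefore dimmer on array 2, and that of *PAB1* was not. For *TIF4632*, not above background on either array, no direction could be read.

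The multisubunit factor eIF3 bridges the small ribosomal subunit and the mRNA complex. Its subunit genes also divided into those with a wide gap and those without. *PRT1* had intensities of 265 and 92.2, the second barely above background, and *NIP1* had 213 and 82.4, the latter not above background on array 2. *TIF35* had 366 and 181. In contrast *RPG1* had 371 and 287 and *TIF34* had 723 and 680, both within 1.29-fold between arrays. *HCR1*, a loosely bound subunit with a role in scanning and recycling, was the only eIF3 probe set brighter on array 2, at 984 and 1698.

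Factors that act at the start codon followed. *SUI1*, for eIF1, had 626 and 305, and *TIF11*, for eIF1A, had 315 and 146. *TIF5*, for eIF5, which makes eIF2 hydrolyse its GTP, had 207 and 53.7, the lower not above background. Each of these was lower by more than 2-fold on array 2. *FUN12*, for eIF5B, which joins the large subunit, had 473 and 572.

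For eIF2, which carries the initiator tRNA, *SUI2* (alpha subunit) had intensities of 181 and 142, *SUI3* (beta) 223 and 136, and *GCD11* (gamma) 520 and 262. All 3 were above background on both arrays. The exchange factor eIF2B reloads eIF2 with GTP. Its catalytic subunit gene *GCD6* had 101 and 50.5 and *GCD1* had 229 and 96.4. The regulatory subunit genes *GCD2* and *GCN3* had 81.2 and 65.7, and 91.1 and 59.9. *GCD2*, *GCD6* and *GCN3* were above background on array 1 only, and *GCD6* lay just under a 2-fold gap. *GCD7*, the remaining regulatory subunit gene, was brighter on array 2, at 331 and 380.

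Elongation factors were above background on both arrays in every case. The eEF1A probe set shared by *TEF1* and *TEF2* gave 5132 and 5379, and *YEF3*, for the fungal factor eEF3, 4265 and 4529, each within 1.06-fold. eEF2, the translocase, is encoded by *EFT1* and *EFT2*, whose shared probe set gave 2350 and 3350. *EFB1*, for the exchange factor eEF1B alpha, had 2707 and 2335 on one probe set and 4511 and 3272 on the other. *CAM1* and *TEF4*, which both encode eEF1B gamma, were brighter on array 2: *CAM1* had 640 and 1377, and *TEF4* had 809 and 1285 on one probe set and 1157 and 2180 on the other. The paired probe sets of *TEF4* moved the same way between arrays, as did those of *EFB1*. *STM1*, a ribosome-bound protein that preserves idle ribosomes, had 1889 and 1595.

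The release factors were both dimmer on array 2. *SUP45*, for eRF1, which reads the stop codon, had 233 and 96.1. *SUP35*, for the GTPase eRF3, had 156 and 57.3, the latter not above background.

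By function, the replicates thus differed most in initiation and termination, whose probe sets were mostly dimmer than those for elongation. The log2 ratio of array 2 over array 1 had a median of -0.85 over the 24 initiation factor probe sets, of -1.36 over the 2 for termination, of 0.09 over the 9 for elongation and of 0.74 over the 2 for eIF5A. Over all 6504 probe sets named for 1 gene it was -0.10, with quartiles of -0.60 and 0.37. Of the initiation probe sets 20 were lower on array 2, beside 3570 of the 6504 named for 1 gene. Among the 4553 named probe sets above background on array 1, 2694 were lower. Of the 24 for initiation, 10 were lower by more than 2-fold, as were both for termination and none of the 9 for elongation. Some of these gaps rest on a value not above background on array 2. With such values raised to background, 9 for initiation and 1 for termination were still lower by more than 2-fold, *TIF4631* and *SUP35* being the ones lost, beside 7.51% of the named probe sets above background on array 1. On the values as given the background for such a gap was 12.0% of the named probe sets, or 16.3% of those above background on array 1. In the other direction 1 member, *CAM1*, was higher by more than 2-fold, against 4.04% of the named probe sets, or 5.25% of those above background on array 1. Over the 32 genes with a probe set of their own, probe sets averaged, the median ratio was -0.53. Each elongation probe set was brighter than at least 92.4% of all probe sets on each array. Initiation probe sets as bright on both arrays were those of *TIF1* and *TIF2*, *PAB1*, *TIF34* and *HCR1*. Their log2 ratios were -0.40, 0.07, -0.09 and 0.79. *SUI1*, brighter than 92.2% on array 1, had a ratio of -1.04. The part of brightness in the differences between functions was not tested. These are 2 arrays of 1 condition, so the differences are given as a description with no test.

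**Figure D2:**
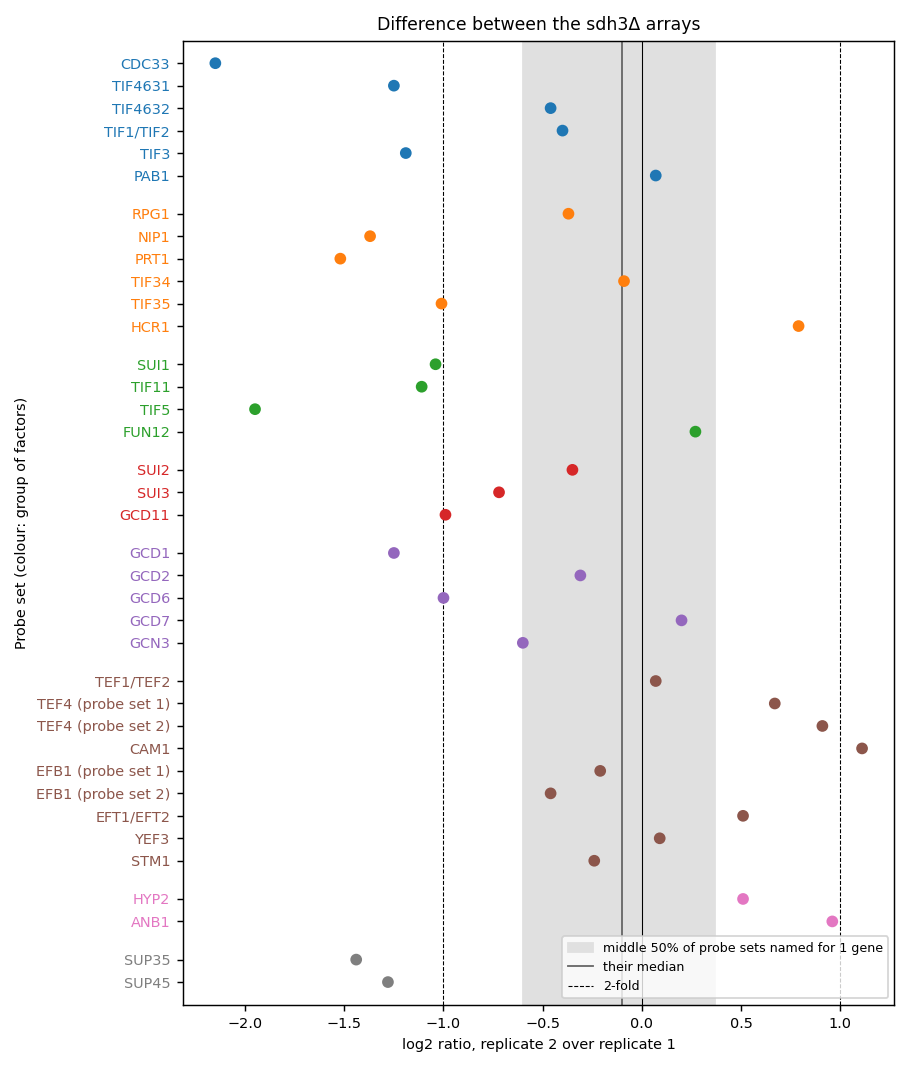
Log2 ratio of replicate 2 over replicate 1 for each translation factor probe set, coloured by group, with the middle 50% of the 6504 probe sets named for 1 gene in grey. Initiation and termination factors lie mostly left of 0, with a median of -0.85 for initiation, and elongation factors lie around it, with a median of 0.09.

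Yeast has a pair of eIF5A genes with opposite responses to oxygen. *HYP2* is expressed in air and *ANB1* under hypoxia, where heme-dependent repression by Rox1 is lifted. eIF5A helps ribosomes past stretches that are slow to join, and needs the modified residue hypusine. *HYP2* had intensities of 6386 and 9095 on the arrays of the aerobically grown mutant, a mean of 7741 ± 1916 (SD, n = 2). *ANB1* had 99.8 and 194, a mean of 147 ± 66.7 (SD, n = 2). Both genes were thus above background on both arrays, *HYP2* far above it and *ANB1* within a few fold of it. Both were brighter on array 2, with a log2 ratio to array 1 of 0.51 for *HYP2* and 0.96 for *ANB1*, beside 0.67 for genes absent from yeast. The proteins are close relatives, and whether *HYP2* RNA adds to the signal of the *ANB1* probe set was not tested. Reference values for this pair were not used here, so no comparison between strains is given.

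Other genes of the hypoxic response, with the regulator genes *ROX1* and *HAP1* counted among them, give the setting of *ANB1*. Of 12 such genes, 6 were above background on both arrays, 3 on array 1 alone and 3 on neither, taking for each gene the probe set not marked as sharing sequence with other genes. For *HAP1*, the heme-responsive activator, that probe set had 82.2 and 82.5, while its other 2 had 752 and 567, and 510 and 380. *HEM13*, of heme synthesis, had 192 and 262, and *TIR1*, a cell wall mannoprotein, had 187 and 376. *AAC3*, the hypoxic ADP/ATP carrier, had 85.3 and 95.0, close to background. *COX5B*, the hypoxic form of a cytochrome c oxidase subunit, had 35.1 and 37.3, *CYC7*, the hypoxic cytochrome c, 34.7 and 33.3, and *DAN1* 19.1 and 30.1. These last 3 were the genes not above background on either array. *ROX1*, the repressor gene itself, had 72.2 and 85.9 and was above background on array 1 alone. All 4 aerobic partners were above background on both arrays, among them *COX5A* at 688 and 302 and *CYC1*, cytochrome c, at 1185 and 1773. Reference values were matched for 3 of these 12 genes. *ERG11*, of sterol synthesis, passed the limma test described below, with 582 and 458 in the mutant against 1307, 2180 and 1597 and an adjusted p of 0.0050, and the others did not. Of the 1996 table rows used for that test, 34.1% were called lower. The call of *ERG11* was lost without *sdh3*Δ replicate 2, in both forms of the methods' t-test, with the prior variance set per bin of mean value and with 0.5 added to the log2 values of the mutant.

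**Figure D3:**
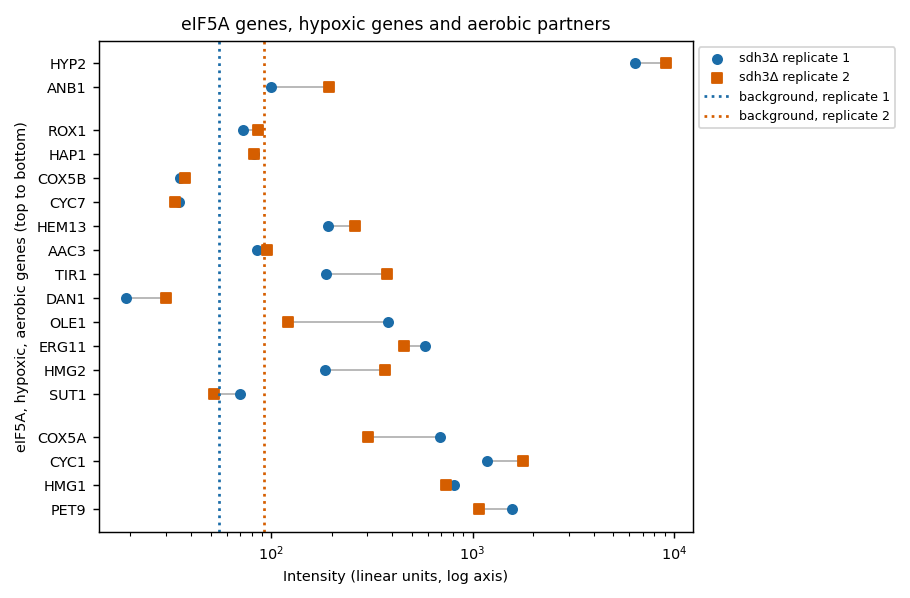
Intensity (log axis) of the eIF5A genes, of genes of the hypoxic response and of aerobic partners on both *sdh3*Δ arrays. Each array's background is a dotted line. *ANB1* lies above background on both arrays, at 99.8 and 194. So do 6 of the 12 genes of the hypoxic response, which include the regulator genes *ROX1* and *HAP1*.

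The mutant was next set against the reference arrays, to ask which factors differed in level between strains. Reference values came from the expression table that accompanies the article, which is ordered by p-value and of which the leading 1996 rows out of 6679 were used. These rows hold 13 of the 38 members. For 12 of them, *TEF1* on the probe set it shares with *TEF2* included, the mutant values equalled those of a deposited probe set. The row of *EFB1* matched none, so it was left out, and 25 members had no row here. Since rows were kept for a small p-value, the mutant and reference arrays did not overlap in 100% of the rows, and non-overlap says nothing of the members. The moderated test of limma, two-sided, on log2 values gave each gene the same standard error of 0.46 from the spread between the mutant arrays, and rows not used entered the Benjamini-Hochberg adjustment at a p-value of 1. To pass, a gene had to differ by 1.29 or more on the log2 scale.

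Of the 12, limma called 6 lower and 1 higher in *sdh3*Δ at an adjusted p under 0.05, and 5 did not pass. Of the 1996 rows used, from which the members were drawn, 34.1% were lower and 2.40% higher. Over all 6679 rows, where a row not used could not be called, these shares were 10.2% and 0.719%. The 6 lower were the initiation factor genes *TIF35*, *TIF3*, *TIF5*, *SUI3*, *GCD2* and *GCN3*, and the 1 higher was *GCD7*. The median log2 difference of the 12 was -1.20, beside -1.0 over the 1996 rows. With 0.5 added to the log2 values of the mutant, 72.2% of the calls over all rows were lower in place of 93.4%, and of the members 3 were lower and 3 higher. Without *sdh3*Δ replicate 2, the array on which most initiation factors were dimmer, 1 was lower and 0 higher, while 8 of the 12 had an unadjusted p under 0.05, beside 37.3% of the rows used. Without replicate 1, 6 were lower and 0 higher, with 8 of the 12 at an unadjusted p under 0.05, beside 48.0%. With 1 mutant array in the fit the standard error was 0.58, and its variance still came from the spread between both mutant arrays. The methods' t-test after adjustment gave 0 lower and 1 higher, *TIF34*. It put 11 of the 12 at an unadjusted p under 0.05, as it did 81.3% of the rows used, which were kept for a small p-value.

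**Figure D4:**
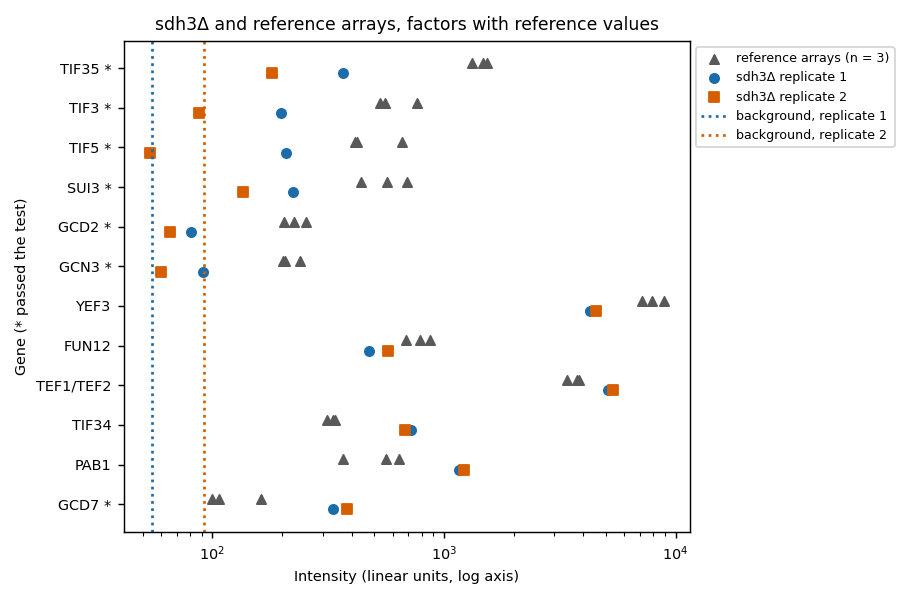
Intensity (log axis) of the 12 probe sets with reference values, on the 3 reference arrays (triangles) and both *sdh3*Δ arrays (circle and square), ordered by log2 difference, with each mutant array's background as a dotted line. An asterisk marks the 6 genes lower and the 1 higher at an adjusted p under 0.05 by limma.

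*TIF35*, the eIF3g subunit, had 366 and 181 in the mutant against 1470, 1319 and 1532 on the reference arrays. The means were 274 ± 131 (SD, n = 2) and 1441 ± 110 (SD, n = 3). It was lower by 5.58-fold (log2 difference -2.48 ± 0.46 SE, adjusted p = 7.0e-06 from limma). This was the lowest of the 12, and of the calls it alone was kept without replicate 2, with an adjusted p of 0.044 and a difference of -1.97. *TIF34*, the eIF3i subunit, lay on the other side of the reference, with 723 and 680 against 311, 339 and 333. Its log2 difference of 1.10 (95% interval 0.19 to 2.01) did not pass limma, with an adjusted p of 0.12. The subunits of 1 complex thus lay in opposite directions from the reference, and the difference between the subunits was not tested.

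*TIF3*, for eIF4B, had 198 and 87.1 in the mutant against 529, 767 and 555. The means were 143 ± 78.5 (SD, n = 2) and 617 ± 130 (SD, n = 3). Its log2 difference was -2.21 (adjusted p = 8.4e-05 from limma), or -2.17 with the value of array 2, which was not above background, raised to it. *PAB1* had 1164 and 1221 against 641, 366 and 564, higher by 1.23 on the log2 scale (95% interval 0.32 to 2.13) without passing, at an adjusted p of 0.068. Within this group *TIF3* was thus called and *PAB1* was not. From replicate 1 alone, the adjusted p of *TIF3* was 0.15. Adding 0.5 to all log2 values of the mutant, a change of scaling between the studies, took *PAB1* to an adjusted p of 0.0069 and *TIF34* to 0.015.

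*TIF5*, for eIF5, had 207 and 53.7 against 421, 661 and 414 in the reference, with means of 130 ± 109 (SD, n = 2) and 499 ± 141 (SD, n = 3). The log2 difference of -2.21 had an adjusted p of 8.7e-05 from limma. Raised to background on array 2 it was -1.82, and without replicate 2 it was -1.23 with an adjusted p of 0.37. The size of the decrease thus depended on array 2, where *TIF5* was not above background. *FUN12*, for eIF5B, had 473 and 572 against 872, 685 and 790, a difference of -0.58 (95% interval -1.49 to 0.32) that did not pass.

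*SUI3*, the beta subunit of eIF2, had 223 and 136 against 570, 438 and 692, with means of 179 ± 61.8 (SD, n = 2) and 567 ± 127 (SD, n = 3). It was lower by 3.21-fold (log2 difference -1.68, adjusted p = 0.0050 from limma). Without replicate 2 the adjusted p was 0.30, and with a prior variance taken within 10 bins of mean value it was 0.052.

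The subunits of eIF2B were called in both directions. *GCD2*, the delta subunit, had 81.2 and 65.7 against 225, 253 and 203, which differed by -1.63 on the log2 scale (adjusted p = 0.0070 from limma). The means were 73.4 ± 11.0 (SD, n = 2) and 227 ± 25.0 (SD, n = 3). *GCN3*, the alpha subunit, had 91.1 and 59.9 against 201, 240 and 205, a difference of -1.54 (adjusted p = 0.012 from limma). Its means were 75.5 ± 22.1 (SD, n = 2) and 215 ± 21.8 (SD, n = 3). *GCD7*, the beta subunit, had 331 and 380 against 162, 107 and 99.6, higher by 2.96-fold or 1.56 on the log2 scale (adjusted p = 0.010 from limma). For *GCD7* the means were 355 ± 34.0 (SD, n = 2) and 123 ± 34.2 (SD, n = 3). All 3 genes encode the regulatory part of eIF2B, which senses phosphorylated eIF2. *GCD2* and *GCN3* were not above background on array 2. With values raised to background *GCD2* differed by -1.38 (adjusted p = 0.051 from limma) and *GCN3* by -1.23 (adjusted p = 0.12). Without replicate 2 they differed by -1.47 (adjusted p = 0.21) and -1.24 (adjusted p = 0.36). *GCD7* was above background on both mutant arrays. Its reference values of 162, 107 and 99.6 lay above 92.1, the background of mutant array 2, which was applied to them. Its call was lost without *sdh3*Δ replicate 1 (log2 difference 1.66), without replicate 2 (1.47) and without reference array 3 (1.43). The last of these fits gave an adjusted p of 0.053 from limma. The difference stayed near 1.56 in these fits of limma, in which the standard error is larger with an array fewer. With every array in the fit, the call of *GCD7* was also lost with the binned prior variance (adjusted p = 0.080 from limma). The methods' t-test put its adjusted p at 0.072, and the unequal-variance form of that test at 0.16.

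Neither elongation factor with reference values passed. *YEF3*, for eEF3, had 4265 and 4529 against 7942, 8902 and 7132, a log2 difference of -0.86 (95% interval -1.76 to 0.05, adjusted p = 0.33 from limma). The probe set shared by *TEF1* and *TEF2* had 5132 and 5379 against 3386, 3763 and 3839, a difference of 0.52 (95% interval -0.38 to 1.43, adjusted p = 0.97 from limma). Replicates lay close together on both sides for these bright probe sets, but the test gives each gene the same error, so this closeness carried no weight.

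A further 34 genes of translation comprised regulators of initiation, enzymes that modify factors and ribosome rescue factors. Of these 6 were lower, 0 higher, 3 did not pass and 25 had no matched row, so 6 of the 9 with a matched row were lower, beside 34.1% of the rows used. *DYS1*, deoxyhypusine synthase, which modifies eIF5A, had 593 and 547 in the mutant against 1381, 1704 and 1225, which differed by -1.32 on the log2 scale (adjusted p = 0.041 from limma). *PAN2*, of the poly(A) nuclease that acts with the poly(A)-binding protein, had 67.9 and 49.8 against 157, 236 and 210. Its difference was -1.77 on the values as given, and -1.33 with array 2, where it was not above background, raised to background. *TPA1*, *PBP1* and *SRO9* had differences of -1.60, -1.37 and -1.33, that of *TPA1* being -1.34 with values raised to background. *DOM34*, of ribosome rescue, had 53.5 and 37.2, not above background in either replicate. It was called lower on the values as given (adjusted p = 0.040 from limma). With values raised to background its difference was -0.65, or 1.57-fold, and did not pass. The 3 that did not pass were *HBS1*, *EAP1* and *TIF6*, with differences of -1.20, -0.61 and 0.39. When 0.5 was added to the log2 values of the mutant, or values were raised to background, 0 of the 6 were called. The same held in both forms of the methods' t-test. These calls were also lost without *sdh3*Δ replicate 2. Raising to background left the differences of *DYS1*, *PBP1* and *SRO9* at -1.32, -1.37 and -1.33. Their adjusted p from limma was then 0.072, 0.056 and 0.070.

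Between the mutant arrays, this list had a median log2 ratio of -0.44 over 42 probe sets. *GCN4*, the activator of amino acid synthesis whose translation responds to eIF2B activity, had 3212 and 1051. *TMA19*, a ribosome-associated protein, had 3351 and 865, and *CAF20*, an inhibitor of eIF4E, had 1868 and 732. Higher on array 2 were *DPH5* and *DPH2*, of diphthamide synthesis on eEF2, at 338 and 928 and at 420 and 895, and *LIA1*, the hydroxylase that completes hypusine on eIF5A, at 409 and 763. *DPH1*, of the same diphthamide pathway, had 111 and 53.8, the second not above background, so the pathway's genes did not move together between the replicates.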

How the data were processed

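Duplicate total RNA samples of the *sdh3*Δ strain were measured on Yeast Genome S98 arrays. After global scaling in Microarray Suite, version 5, the authors normalized the arrays in dChip, whose Perfect Match model gave the linear intensity of each probe set. These deposited intensity values were used as given. Probe sets were named through the array annotation, and all 38 members were found in the R64 gene table. No coordinates or sequences were used.

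Values of 3 reference arrays were read from the expression table published with the article. Only its values per array were used, and its fold changes, p-values and q-values were not. Of its 1996 rows used here, 1968 repeat the mutant values of a deposited probe set digit for digit, and 4683 rows were not used. Log2 values of 2 mutant and 3 reference arrays were compared with limma 3.58.1 in R 4.3.3. The prior variance of 0.256 came from 9324 deposited probe sets with values above 0, and its prior degrees of freedom were infinite. The Benjamini-Hochberg adjustment ran over 6679 rows. Whether the error rate of the test holds for mutant and reference arrays from different studies was not tested. The number of arrays limits the precision. Alternatives were the methods' t-test in both forms, binned prior variance, a shift of 0.5, values raised to background, other adjustments and filters, and leaving out each array. Added after the data were seen was a limit to rows with mutant values within 2-fold of each other.

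Every member is named, with full statistics for those that passed and for *HYP2* and *ANB1*. The members and lists were chosen with earlier results of these data known. Python 3.11.15, pandas 2.3.3 and numpy 2.4.6 were used.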

Additional observations from a re-analysis of the deposited data

How the results depend on the processing

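Of the members with reference values, limma called 6 lower and 1 higher. The methods' t-test gave 0 lower, with 1 higher, and its unequal-variance form 0 lower and 0 higher, with 11 of 12 at an unadjusted p under 0.05 in each form, beside 81.3% and 70.4% of the 1996 rows used, which were kept for a small p-value. A prior variance within 10 bins gave 4 lower and 0 higher. A shift of 0.5 on the log2 scale, added to the mutant, gave counts in which 3 were lower and 3 higher, and of all calls 72.2% were lower in place of 93.4%. A limit to mutant arrays within 2-fold, chosen after seeing the data, gave 3 lower and 1 higher. Leaving out 1 array at a time gave 1 to 6 lower and 0 to 1 higher. Adjustment over the number of ORFs that the methods name and leaving out dim rows gave 6 and 1, and values raised to background 4 and 1. Over all rows, the methods' t-test called 98 lower and 33 higher in place of 681 and 48, its unequal-variance form 0 and 0, the shift 254 and 98, values raised to background 336 and 25, and without *sdh3*Δ replicate 2 the count was 121 and 9. The median array ratio of -0.53 lay between -0.60 and -0.34 under 5 alternatives, and quantile normalization gave mean intensities of 7532 for *HYP2* and 148 for *ANB1*. No paired analysis was possible because the deposited arrays form 1 group. Members at background on array 2 have only a bound there, and reference background was set at 92.1, the value of mutant array 2.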
